A study of Homo sapiens with 12 samples.

Results

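The genes described here encode the proteins of the cytosolic ribosome. They were chosen by symbol: RPL or RPS followed by a number and at most an A or an X, together with RPSA, RPLP0, RPLP1 and RPLP2. This rule found 77 of the 60669 gene identifiers in the count table, 46 for the large subunit and 31 for the small subunit, and used no measured value. All 77 passed the filter on low counts, and the lowest count of any of them in any library was 2129. FAU, which encodes a ribosomal protein fused to a ubiquitin-like protein, and RACK1, a scaffold bound to the small subunit, carry other symbols and are given beside them.

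Polyadenylated RNA was sequenced from HT1080, a human fibrosarcoma line, in 12 libraries. All cells stably expressed dCas9 for CRISPR interference, which represses a locus without cutting it, and were kept under blasticidin and puromycin. GFP cells carried a control guide RNA against GFP, and in LTR8B cells the guide targeted a retroviral long terminal repeat of the LTR8B family that lies in the first intron of SP140. Interferon beta (IFNB) was either absent or given at 10 U/mL for 4 h, which made 4 groups: GFP untreated (2 libraries), GFP IFNB (2), LTR8B untreated (4) and LTR8B IFNB (4). Whether either line was 1 clone is not given in the sources used here, and each arm of the guide comparison is a single line. The labels do not say that replicates were separate cultures, so each p-value reflects only the spread among these libraries, which may be technical.

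Each ribosome has a small subunit that reads the mRNA and a large subunit that joins amino acids, and growing cells make their proteins in matched amounts. The mRNAs of these proteins are short, abundant and stable, and most begin with a cytosine and a run of pyrimidines, the 5' terminal oligopyrimidine (TOP) motif. Through this motif their translation follows mTOR signalling, with LARP1 as a repressor that binds the capped end. Interferons are best known for inducing antiviral genes, and several of those act on translation. RNA counts measure mRNA level and not translation.

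The starts of a few of these genes are printed here because the pyrimidine tract is common among them, though other genes carry it too. RefSeq start sequences on GRCh38.p14 were matched by symbol for 62 of the 77 genes. Each line gives 30 bases, 15 before the annotated start and 15 from it onward, 5' to 3' on the gene's own strand. Capitals mark the longest run that begins with a cytosine and goes on with at least 4 further pyrimidines. The windows lie at chr6:33272060-33272089 on the plus strand for RPS18, chr9:127451392-127451421 on the minus strand for RPL12, and chr19:49487593-49487622 on the plus strand for RPL13A. Those of RPLP0, RPSA and RPS6 lie at chr12:120201097-120201126 (minus), chr3:39406705-39406734 (plus) and chr9:19380222-19380251 (minus). Those of RPS9, RPL9 and RPS4X lie at chr19:54200843-54200872 (plus), chr4:39458908-39458937 (minus) and chrX:72277234-72277263 (minus).
RPS18: cgcgtcacttccgCTCTCTCTTCCacagga
RPL12: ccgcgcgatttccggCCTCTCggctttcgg
RPL13A: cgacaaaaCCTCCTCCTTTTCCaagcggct
RPLP0: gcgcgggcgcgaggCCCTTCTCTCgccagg
RPSA: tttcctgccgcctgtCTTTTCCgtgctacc
RPS6: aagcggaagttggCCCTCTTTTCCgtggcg
RPS9: gtggcgcttccgcgCCTCTTTCTCagtgac
RPL9: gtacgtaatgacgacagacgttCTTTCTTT
RPS4X: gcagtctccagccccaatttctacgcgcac
In RPL12 and RPSA the tract began exactly at the annotated start, in RPL9 it began at base 8, and the RPS4X window held none.

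A cytosine with 4 or more pyrimidines after it stood exactly at an annotated start in 46 of the 62 matched genes, which is 74.2%. Among 11345 other tested genes the share was 6.96%. With a start position free to move by 15 bases either way, 59 of the 62 genes (95.2%) had such a tract on their own strand, against 50.3% of the other tested genes. On the opposite strand the shares were 27.4% and 49.7%. Of the non-ribosomal TOP mRNAs, such as those of elongation factors, 13 of 14 matched genes had the tract at the start. Of the mitochondrial ribosomal protein genes, 6 of 69 (8.70%) had it. Within 250 bases before to 50 after the start, on either strand, CCGGAAG (an ETS core) was found in 35.5% of the matched genes and 21.6% of other tested genes. GGGCGG (an SP1 box) was found in 58.1% and 74.1%, AAGATGG (a YY1 core) in 12.9% and 9.29%, and TATAAA in 8.06% and 9.06%. These are matches of letters and not measured binding. Start sequences were not used to choose the genes.

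Total counts ran from 12404270 to 28801579 per library, and mitochondrially encoded genes took 3.35% to 4.55%. SP140, a bromodomain protein and the target of the guide, was at 30.3 CPM (counts per 1000000 after TMM scaling) in GFP untreated and 1.25 CPM in LTR8B untreated cells, and its log2 fold change averaged over treatments was -4.61 (SE 0.15, adjusted p = 1.40e-11, edgeR). All 10 reference interferon-stimulated genes rose with IFNB in GFP and in LTR8B cells, with median log2 fold changes of 4.97 and 4.83. Among mesenchymal markers VIM stood at 3063 to 3953 CPM, while COL1A1 reached only 3.03 CPM and S100A4 5.44 CPM. Of the 6 mesenchymal markers, 2 passed the threshold in the guide comparison averaged over treatments, both lower in LTR8B cells: COL1A1, a fibrillar collagen chain, at -0.64 (SE 0.16, adjusted p = 0.0492, edgeR) and SPARC, a collagen-binding matrix protein, at -0.22 (SE 0.05, adjusted p = 0.0289). Their part in the guide values below was not tested. The epithelial markers EPCAM, CDH1 and KRT19 had at most 5 counts in a library, although KRT8 was at 225 to 300.3 CPM. The haematopoietic markers PTPRC and CD14 had at most 2 counts and CD3E at most 12.

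The 77 genes together took 7.12% of all 251089765 counts. Single genes ranged from a mean of 2823 CPM for RPS2, a small subunit protein near the mRNA entry site, to 186 CPM for RPL36A. RPL13A followed RPS2 with 2379.9 CPM and RPLP0 with 2162 CPM, and RPS28 (208 CPM) and RPS26 (293 CPM) were the next lowest after RPL36A. Levels were compared between genes per kb of transcript, with the median length of the gene's coding transcripts in the GENCODE 29 basic set. These lengths are approximate, since the transcripts used in HT1080 were not measured. The median was 1156 CPM per kb, with quartiles of 795 and 1435 CPM per kb. The large subunit genes had a median of 1128 and the small subunit genes of 1169 CPM per kb, so the subunits lay close together on this scale.

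On the scale per kb, RPS2 was highest at 2958 CPM per kb. RPS18, in the head of the small subunit, followed at 2507, and RPL12, at the base of the large subunit's stalk, at 2400.5 CPM per kb. The lowest were RPS28 at 157, RPS26 at 257 and RPL36A at 269.7 CPM per kb, and the span from highest to lowest was 18.8-fold. That span depends on the annotated length of RPS28, 1326 bases, where the median of the 77 genes was 750.5 bases. Within the large subunit the span was 8.90-fold. The stalk that recruits elongation factors holds RPLP0 at 1956 CPM per kb and its partners RPLP1 at 2070 and RPLP2 at 630.2. RPL5 and RPL11, which form the 5S particle and can bind MDM2, were at 1321 and 767 CPM per kb. RPS6, the classic substrate of S6 kinase, was at 1435, and RPSA, on the outer face of the small subunit, at 1128 CPM per kb. RPS27A, made as a fusion with ubiquitin, was at 1022 CPM per kb, and RPL41, the smallest of these proteins, at 2097.

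**Figure D1:**
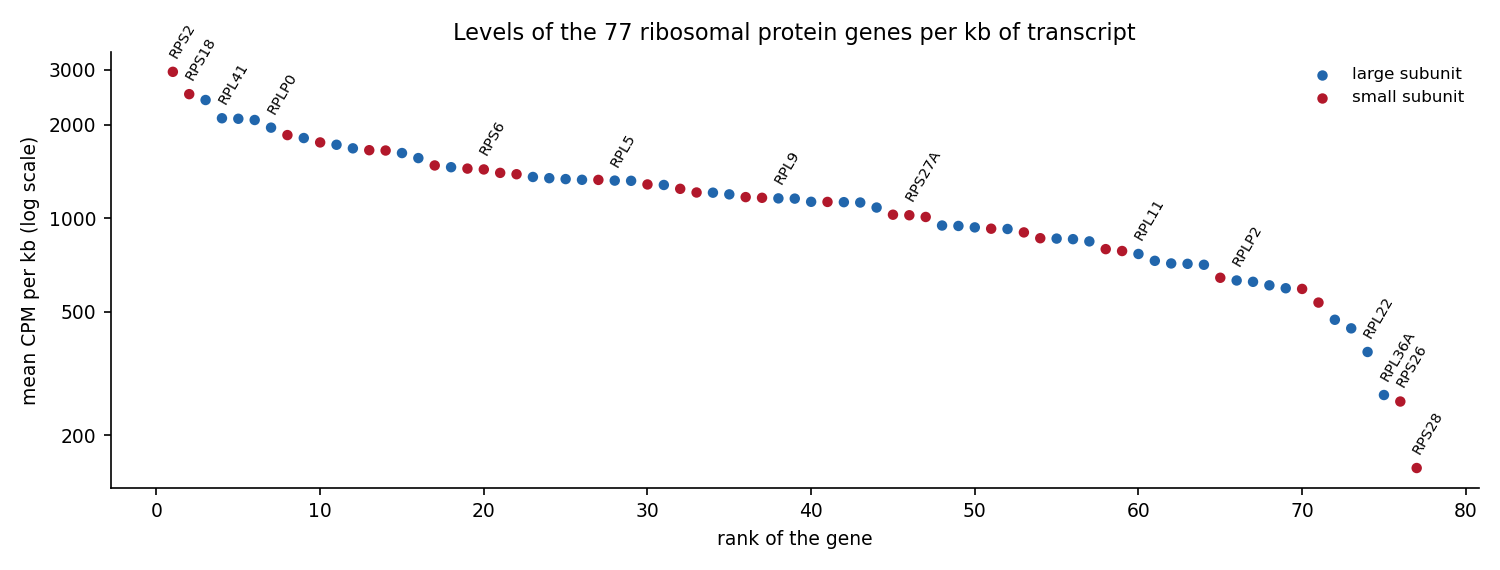
Mean CPM per kb of transcript over the 12 libraries (log scale) for the 77 ribosomal protein genes, ranked; point colour gives the subunit. The quartiles are 795 and 1435 CPM per kb, and RPL36A, RPS26 and RPS28 lie below 300 CPM per kb.

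Pseudogene copies of these genes were a possible source of shared reads. Of 1588 ribosomal protein pseudogene entries, 754 had a count, and together they held 278429 counts, or 1.56% of the counts of the 77 genes. A pair of them held 58.5% of that sum. RPL23AP42 had 124301 counts beside 142175 for RPL23A, so that 46.6% of their joint counts (42.6% to 49.8% by library) went to the pseudogene. RPL36AP37 had 38474 counts beside 46844 for RPL36A, a share of 45.1% (37.7% to 51.8%). RPS28P7 took 21.8% of the joint counts with RPS28. Levels of RPL23A, RPL36A and RPS28 are therefore uncertain, because reads of copies cannot be assigned with certainty.

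Overlap with other genes was a second possible source of shared reads. The use of strand in counting is not given in the sources used here, and reads in the overlapping stretches were not counted separately. RPL36 overlaps LONP1 and MICOS13 on the opposite strand, and the genes that overlap it had 60.7% as many counts as RPL36 itself. The corresponding values were 32.0% for RPL6 (PTPN11), 28.5% for RPL28 (UBE2S), 25.7% for RPL36A (the readthrough RPL36A-HNRNPH2) and 13.2% for RPS13 (PIK3C2A). RPL4 overlaps ZWILCH, a kinetochore gene, at 3.40%. ZWILCH itself was higher in LTR8B cells, with an average log2 fold change of 1.79 (SE 0.07, adjusted p = 2.72e-11, edgeR). RPL9 (LIAS) and RPS9 had overlaps of 1.94% and 0.0256%. The introns of 28 of the 77 genes held 60 small nucleolar RNA genes.

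Across the 12 libraries the genes moved together. For each gene the deviation of log2(CPM + 0.5) from its own mean over all libraries was taken, and the median of the 77 deviations summarised each library. It was 0.14 and 0.09 in the GFP untreated libraries and 0.08 and -0.10 in the GFP IFNB libraries. In the LTR8B untreated libraries it was -0.04, 0.12, -0.13 and -0.09, and in the LTR8B IFNB libraries -0.01, 0.04, 0.00 and -0.07. Replicates of one group thus stood on both sides of the mean in every group except GFP untreated. In GFP untreated 1, 76 of the 77 genes were above their own mean, in LTR8B untreated 2, 75 were, and in GFP IFNB 1, 74 were. In GFP IFNB 2 and LTR8B untreated 3, 74 genes were below it.

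The median gene had an SD over the 12 libraries of 0.11 on the log2 scale, which narrowed to 0.05 once each library's median was taken off. The within-group SD of the library medians, pooled over the 4 groups, was 0.08. Large and small subunit genes moved alike, with medians of 0.10 and 0.15 in LTR8B untreated 2 and -0.09 and -0.10 in GFP IFNB 2. The median biological coefficient of variation in edgeR was 6.79% for the 77 genes and 8.88% for all tested genes. RPS29, a small zinc-binding protein of the small subunit, varied most beside the group, with an SD of 0.17 after that subtraction. Its CPM was 467 and 349.9 in GFP untreated, 399 and 300.2 in GFP IFNB, 344, 456, 362 and 283 in LTR8B untreated, and 319.9, 409, 356 and 303 in LTR8B IFNB. All 4 groups overlapped in RPS29.

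**Figure D2:**
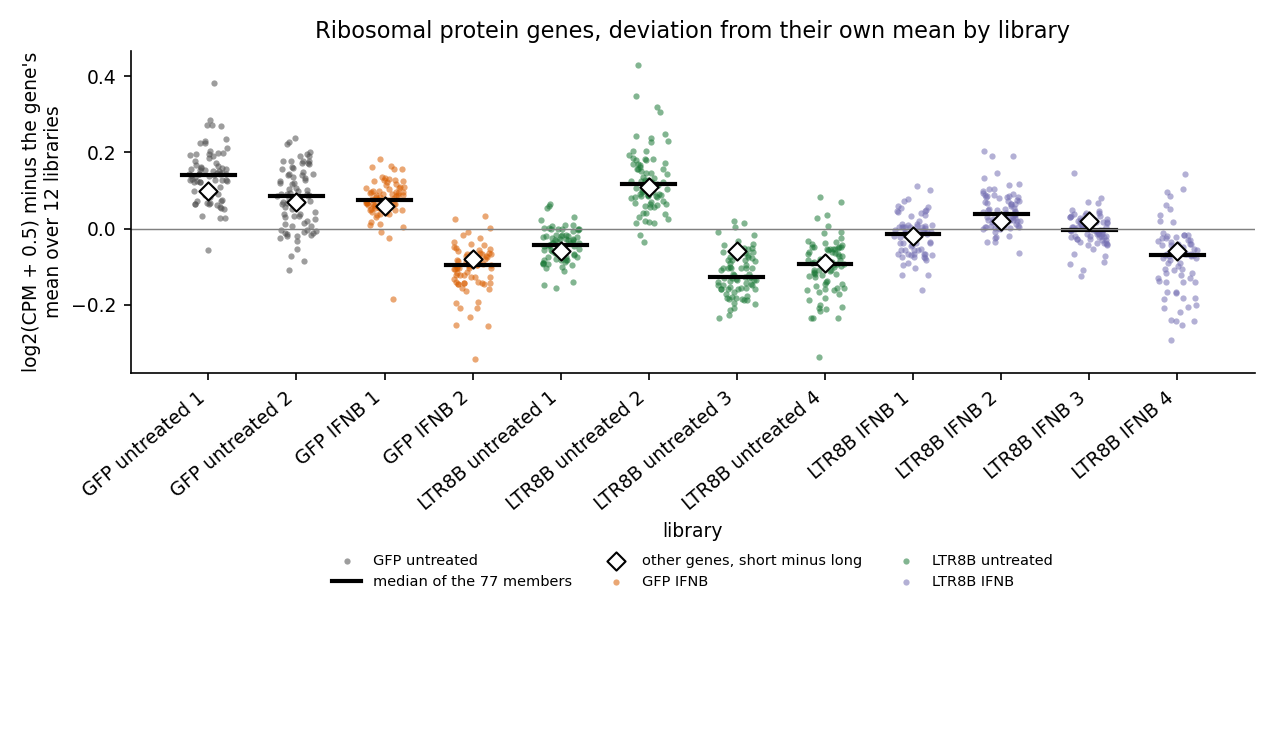
Each point is 1 of the 77 genes, plotted as log2(CPM + 0.5) minus its mean over 12 libraries, by library and coloured by group; bars are medians, and diamonds are the median of short minus that of long genes outside the group. LTR8B untreated 2 (median 0.12) stands above the other 3 libraries of its group (-0.04, -0.13 and -0.09), and the diamonds follow the bars.

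Short genes outside the group shifted too. Other genes with a mean of at least 50 CPM were divided by transcript length, 335 of at most 1000 bases and 1343 of at least 4000 bases, a division chosen after the values were seen. The median deviation of the short genes minus that of the long genes was 0.10, 0.07, 0.06 and -0.08 in the GFP libraries in the order above. In LTR8B untreated cells it was -0.06, 0.11, -0.06 and -0.09, and in LTR8B IFNB cells -0.02, 0.02, 0.02 and -0.06. The difference between short and long genes was therefore above 0 in each library in which the ribosomal protein median was above 0, and below 0 where that median was below 0. LTR8B IFNB 3, at 0.00 for the ribosomal protein genes, was at 0.02. Of the 77 genes, 59 had a length of at most 1000 bases. The part of transcript length in the results below was not tested.

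Other gene lists gave the same order in part. The 73 tested nuclear respiratory chain subunits had library medians of 0.13 in GFP untreated 1 and 0.11 in LTR8B untreated 2. They were at -0.09 in both GFP IFNB 2 and LTR8B untreated 4. The 78 mitochondrial ribosomal protein genes had medians of 0.09, 0.08, -0.10 and -0.03 in the same libraries. The 20 non-ribosomal TOP mRNAs had 0.03, -0.02, -0.05 and 0.01. The 13 host genes of small nucleolar RNAs had 0.16, 0.07, -0.10 and 0.01. Factors of ribosome assembly had 0.04, 0.06, -0.12 and 0.04, and RNA polymerase I genes 0.03, 0.04, -0.04 and 0.07. LTR8B untreated 3 was at -0.13 for the ribosomal protein genes. There the respiratory chain, mitochondrial ribosomal and non-ribosomal TOP lists were each at -0.08. The host genes were at -0.09, assembly factors at -0.04 and RNA polymerase I genes at -0.01. RNA quality values of the libraries were not used here.

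**Figure D3:**
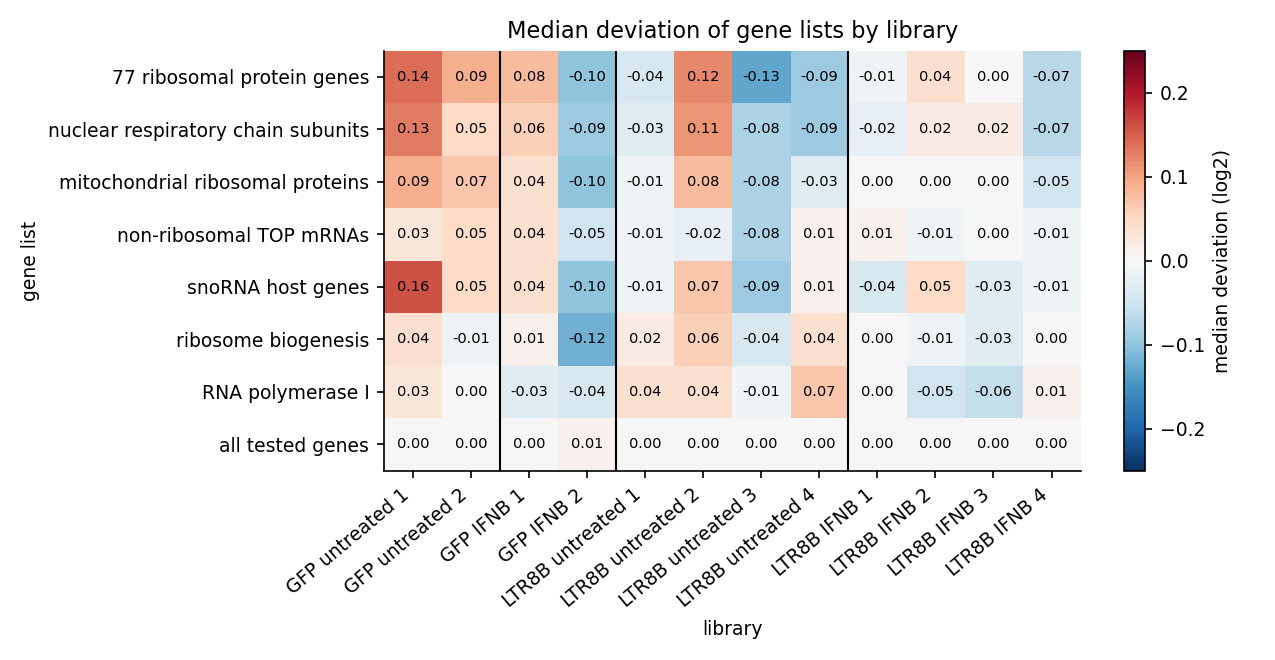
Median deviation (log2, colour and number) of each gene list in each library, with lines between the 4 groups. Respiratory chain subunits track the ribosomal protein genes from 0.13 in GFP untreated 1 to -0.09 in GFP IFNB 2. Non-ribosomal TOP mRNAs stay between -0.08 and 0.05, and in LTR8B untreated 3 both lists are at -0.08.

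The first comparison asked whether the LTR8B guide changed these genes in untreated cells. None of the 77 passed the threshold in either direction with edgeR, where 0.360% of the 16393 tested genes did. The summed share of counts was 7.80% ± 0.178 (SD, n = 2) in GFP untreated and 7.03% ± 0.464 (SD, n = 4) in LTR8B untreated cells. The median log2 fold change was -0.14, or -9.26%, beside 0.01 for all tested genes. It was negative for 74 of the 77, where 48.7% of all tested genes were negative. Since the 77 genes share the library shifts described above, counts of them here and in the comparisons below are not counts of separate observations. At an unadjusted p under 0.05, 26 genes were lower and none higher (5.30% of all tested genes were lower at that level), and DESeq2 called 4 lower, where it called 0.506% of the 35398 genes given to it. In bulk RNA a smaller share cannot be divided into less mRNA per cell and more of other mRNAs.

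RPL9, a large subunit protein near the base of the stalk, had the most negative value. Its CPM was 1073 and 1049 in GFP untreated cells and 866, 902, 824 and 765 in LTR8B untreated cells, with no overlap. The log2 fold change was -0.34 (SE 0.09, adjusted p = 0.124). RPS9, a small subunit protein at the mRNA entry site, was at 689 and 705 CPM in GFP untreated cells and the LTR8B untreated libraries had 587, 652, 548 and 544 CPM, again without overlap. Its log2 fold change was -0.26 (SE 0.09, adjusted p = 0.283). For RPL9 the call depended on the tool, since DESeq2 gave an adjusted p of 0.0247, and DESeq2 also called RPL12, RPL7A and RPL15 with log2 fold changes of -0.20, -0.19 and -0.20.

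The 3 genes highest in mean CPM lay below the group's median of -0.14. Genes next in level lay on both sides of it, such as RPL4 (1640.3 CPM) at -0.06 and RPL15 (1477 CPM) at -0.21. RPS2 was at 3114 and 3172 CPM in GFP untreated libraries and at 2659, 3065, 2481 and 2699.6 CPM in LTR8B untreated libraries. RPL13A, a large subunit protein that interferon gamma can release from ribosomes of myeloid cells, was at 2639 and 2719 CPM, and at 2284, 2523, 2099 and 2284 CPM in LTR8B untreated cells. RPLP0 was at 2383 and 2460.4 CPM, and at 2121, 2254, 1858 and 2084 CPM. In these 3 genes every LTR8B library lay below both GFP libraries, and LTR8B untreated 2 lay nearest. Their log2 fold changes were -0.21, -0.22 and -0.22, with adjusted p of 0.317, 0.263 and 0.298. RPSA was at 1352 and 1424 CPM against 1203, 1290.4, 1052 and 1192 CPM, with a log2 fold change of -0.23 (adjusted p = 0.263).

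In all, 23 of the 77 genes were lower in LTR8B untreated cells with no overlap between the groups, and none was higher (9.44% of all tested genes were lower without overlap). These values depended on single libraries. Without LTR8B untreated 2 the median log2 fold change was -0.21 and 56 genes had an unadjusted p under 0.05, all lower (7.88% of all genes tested in that fit were), yet still none passed the adjusted threshold. Without GFP untreated 1 the median was -0.11, and 13 genes had an unadjusted p under 0.05, all lower (4.57% of all genes tested in that fit were). Without GFP untreated 2 it was -0.17, with 11 such genes (2.18%). LTR8B untreated 2 and both GFP untreated libraries are among those where short genes were high relative to long ones.

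With IFNB the group was level between the guides. None of the 77 genes passed the threshold, where 0.354% of all tested genes did. The summed share was 6.95% ± 0.472 (SD, n = 2) in GFP IFNB and 6.92% ± 0.270 (SD, n = 4) in LTR8B IFNB cells. The median log2 fold change was -0.01, beside 0.00 for all tested genes, with 36 values positive and 41 negative (51.1% of all tested genes were negative). This balance rested on the 2 GFP IFNB libraries, which differed from each other: the median was 0.09 without GFP IFNB 1, with 72 genes positive, and -0.09 without GFP IFNB 2, with 71 genes negative. RPL9 had a log2 fold change of -0.13 (SE 0.09, adjusted p = 0.700), and RPS9 also of -0.13 (adjusted p = 0.705).

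Averaged over both treatments, 1 of the 77 genes passed the threshold, in the higher direction. Of all tested genes 2.14% passed, 1.15% upward. The median of the 77 log2 fold changes was -0.07, beside 0.00 for all tested genes, and 69 of them were negative, where 49.6% of all tested genes were. Without GFP IFNB 1 the median was -0.03 with 47 negative values, without GFP IFNB 2 it was -0.11 with 75, and without GFP untreated 1 it was -0.05 with 60. At an unadjusted p under 0.05, 19 genes were lower (7.72% of all tested genes were) and 1 was higher. The count past the threshold depended on the fit. It was 3 with DESeq2, which called 1.60% of the genes given to it, and 1 with limma-voom. It was 5 without LTR8B untreated 2, 1 of them higher and 4 lower, where 2.80% of all genes tested in that fit passed. It was 1 without GFP IFNB 2, where the gene was RPL9 and lower, and 1 without LTR8B untreated 3 or LTR8B IFNB 4, higher in both. It was 0 without GFP untreated 1, GFP untreated 2, GFP IFNB 1, LTR8B untreated 1 or LTR8B untreated 4, and likewise without LTR8B IFNB 1, 2 or 3.

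RPL9 came nearest to the threshold among the lower genes. With IFNB its CPM was 1009 and 845 in GFP cells and 857, 891, 899 and 751 in LTR8B cells, so that the guides overlapped there although they did not in untreated cells. Its average log2 fold change was -0.23 (SE 0.06, 95% interval -0.36 to -0.10, adjusted p = 0.0586, edgeR). DESeq2 gave RPL9 an adjusted p of 0.0182, and edgeR gave 0.0315 without LTR8B untreated 2 and 0.0329 without GFP IFNB 2. RPS9 was at 674 and 575 CPM in GFP IFNB cells, and the LTR8B IFNB libraries had 575, 587, 619 and 505 CPM, with overlap. The average log2 fold changes of RPS9 and of RPS20, a protein in the head of the small subunit, were -0.19 and -0.15, with adjusted p of 0.127 and 0.148.

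RPL21, a large subunit protein, had guide log2 fold changes of 0.06 untreated and 0.16 with IFNB (adjusted p = 0.805 and 0.526), where the group's medians were -0.14 and -0.01. Its CPM was 881 and 799 in GFP untreated and 855 and 745 in GFP IFNB cells. The LTR8B untreated libraries had 900.4, 941, 832 and 824 CPM, and the LTR8B IFNB libraries 930.0, 922, 845 and 883 CPM. The guides overlapped in both treatments, and the average log2 fold change was 0.11 (SE 0.05, adjusted p = 0.337). RPL14 had an average of 0.01 (SE 0.04, adjusted p = 0.968). Relative to each library's median over the 77 genes, RPL21 was 0.19 higher in LTR8B than in GFP cells on the log2 scale, and RPL22 and RPL4 were each 0.09 higher. At the other end RPL9 had -0.16 and RPS9 -0.12. These differences within the group carry no test.

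**Figure D4:**
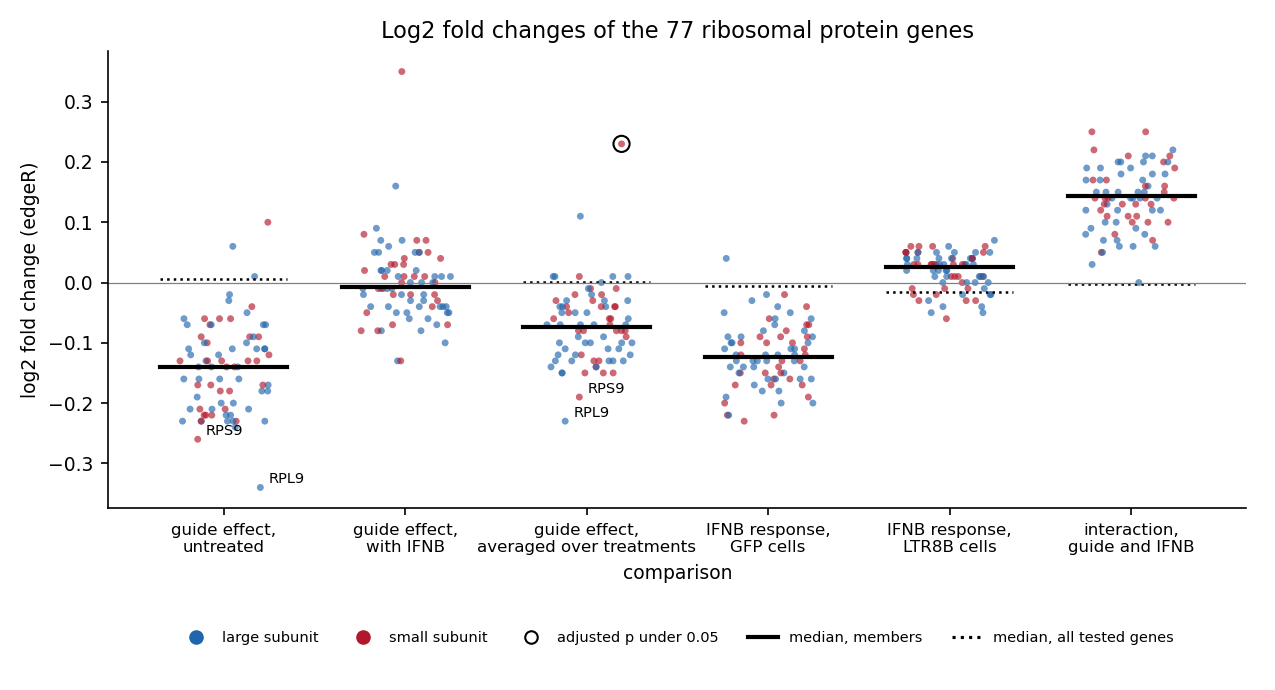
Log2 fold changes (edgeR) of the 77 genes in the 6 comparisons; solid bars are their medians, dotted bars the medians of all tested genes, and a ring marks an adjusted p under 0.05. The medians lie at -0.14, -0.01 and -0.07 in the 3 guide comparisons, and RPL9 lies lowest in the untreated one (-0.34).

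**Figure D5:**
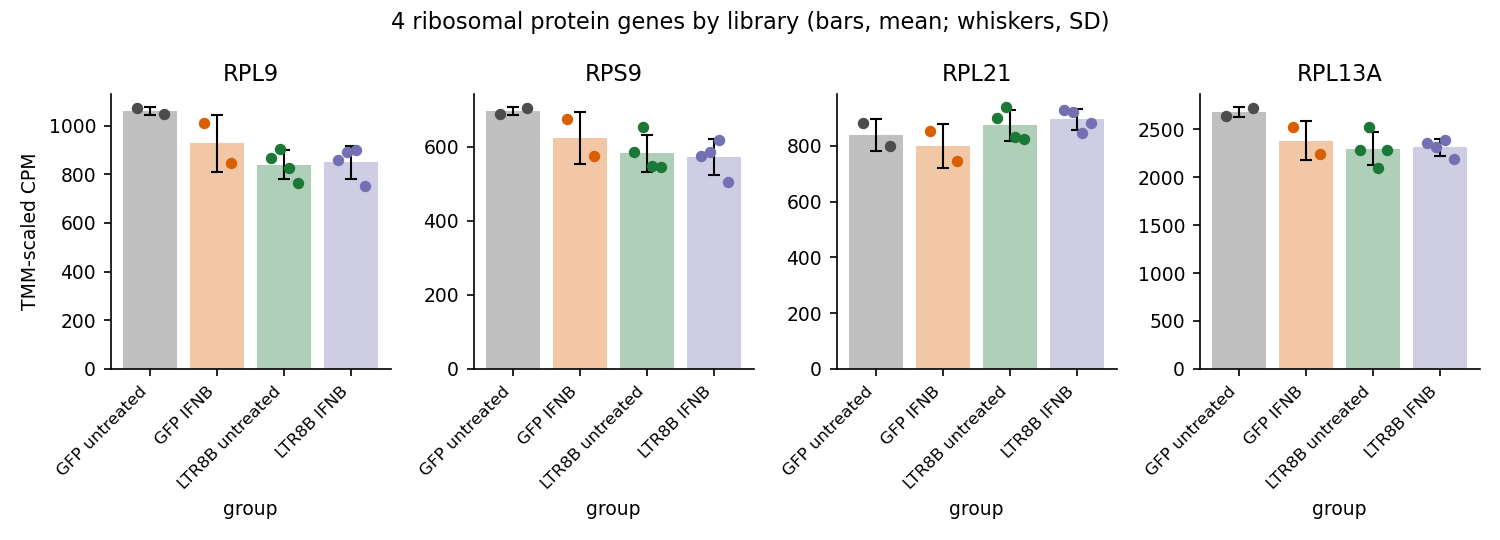
TMM-scaled CPM of RPL9, RPS9, RPL21 and RPL13A by group; points are libraries, bars means and whiskers SD (n = 2 for GFP groups, n = 4 for LTR8B groups). RPL9 is lower in LTR8B untreated (765 to 902) than in GFP untreated (1049 and 1073), while the groups overlap for RPL21.

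The response to IFNB in GFP cells was asked next; it shares the GFP untreated libraries with the untreated guide comparison. None of the 77 genes passed the threshold, where 3.20% of all tested genes did. The median log2 fold change was -0.12, beside -0.01 for all tested genes, with 76 values negative (51.2% of all tested genes were). An unadjusted p under 0.05 was found for 1 gene, which was lower (3.55% of all tested genes were lower at that level), and 38 genes were lower without overlap, where 21.9% of all tested genes were. The number at an unadjusted p under 0.05 depended on the fit and the libraries. It was 7 with DESeq2 (1.48% of the 35398 genes given to it were lower at that level). With no filter on low counts it was 18 (3.16% of 35398 genes). These 35398 genes include those that the filter on low counts removed, so both shares do not compare directly with 3.55%. With total counts alone the number was 29 (7.70% of all tested genes were lower there). It was 30 without GFP IFNB 1 (5.74%), 12 without LTR8B untreated 2 (4.64%), 4 without LTR8B untreated 3 (3.87%), and 0 without GFP untreated 1 or GFP IFNB 2. Among the most negative values were -0.23 for RPS7 (SE 0.11, adjusted p = 0.482) and -0.22 for RPL34 (SE 0.14, adjusted p = 0.593). The highest were 0.04 for RPL22 (adjusted p = 0.852), -0.02 for RPL38 and -0.02 for RPS13. Without GFP IFNB 2, the library in which 74 genes were below their mean, the median was -0.04. Without GFP IFNB 1 it was -0.21. In the full fit medians were -0.10 for respiratory chain subunits, and -0.12 each for mitochondrial ribosomal proteins and small nucleolar RNA host genes. They were -0.05 for non-ribosomal TOP mRNAs, -0.08 for assembly factors and -0.06 for RNA polymerase I genes.

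The response of LTR8B cells to IFNB shares the LTR8B untreated libraries with the untreated guide comparison. None of the 77 genes passed the threshold, where 4.50% of all tested genes did, and none had an unadjusted p under 0.05, where 12.9% of all tested genes did. DESeq2 and limma-voom called none either. The median log2 fold change was 0.03, beside -0.01 for all tested genes. It was positive for 58 genes (45.2% of all tested genes were), but for only 16 when libraries were scaled by total counts alone, a scaling that put the median at -0.02. Without LTR8B untreated 2 it was positive for 76 genes with a median of 0.07, and without LTR8B untreated 3 for 32 with a median of -0.01. No gene was higher or lower without overlap, where 6.16% of all tested genes were higher and 2.96% lower. Values ran from -0.06 for RPS29 (SE 0.17), -0.05 for RPL35 and -0.05 for RPL26 to 0.06 for RPL27 and 0.07 for RPL35A (SE 0.06). Of the 77 genes, all had a 95% interval within 0.5 on either side of 0 on the log2 scale, and the median half-width was 0.14.

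Members with a known tie to interferon or growth signalling passed in neither IFNB response. RPL13A was at 2355, 2315, 2389 and 2190.0 CPM in LTR8B IFNB cells, inside the range of LTR8B untreated cells. RPS6 was at 1579, 1654, 1512 and 1584 CPM in LTR8B untreated and 1619, 1637, 1590 and 1635 CPM in LTR8B IFNB cells, and the groups overlapped. RPL5 was at 1397 ± 36.2 CPM in GFP untreated and 1355 ± 82.9 CPM in GFP IFNB cells (SD, n = 2), and at 1332 ± 57.0 and 1367 ± 49.5 CPM in LTR8B untreated and LTR8B IFNB cells (SD, n = 4). RPL11 was at 703 and 665 CPM in GFP untreated and 694 and 616 CPM in GFP IFNB cells, and at 674 ± 44.5 and 678 ± 48.3 CPM in the LTR8B groups. In the order given for RPL5, RPLP1 was at 967 ± 2.0, 906 ± 27.6, 906 ± 124 and 921 ± 36.6 CPM, and RPLP2 at 477 ± 14.5, 445 ± 26.6, 442 ± 40.6 and 438 ± 24.4 CPM. The 4 LTR8B untreated and 4 LTR8B IFNB libraries overlapped in each of these genes. In GFP cells RPL5 and RPL11 overlapped, while the IFNB libraries lay below the untreated ones for RPLP1 and RPLP2, with log2 fold changes of -0.09 and -0.10 (adjusted p = 0.769 and 0.728), and for RPL13A (2523 and 2238 CPM, -0.17, adjusted p = 0.477) and RPS6 (1646 and 1533 CPM, -0.08, adjusted p = 0.698).

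The interaction asked whether the IFNB response differed between the lines. None of the 77 genes passed the threshold and 0% of all tested genes did, with an unadjusted p under 0.05 for 2 of the 77 and for 2.98% of all tested genes. All 77 values were positive (49.3% of all tested genes were), from 0.00 for RPL22 to 0.25 for RPS15. Their median was 0.14, beside 0.00 for all tested genes. Also positive were 64 of 73 respiratory chain subunits, 67 of 78 mitochondrial ribosomal proteins and 12 of 13 small nucleolar RNA host genes. Each of these lists had a median of 0.12. Medians were 0.09 for non-ribosomal TOP mRNAs, 0.05 for assembly factors and -0.01 for RNA polymerase I genes. The 77 genes share the library shifts described above, so their common sign is not 77 separate observations. The median was 0.05 without GFP IFNB 2 and 0.23 without GFP IFNB 1, and the number at an unadjusted p under 0.05 ran from 0 to 33 when single libraries were left out. It was 33 without LTR8B untreated 2 (6.86% of all genes tested in that fit) and 25 without GFP IFNB 1 (7.87%).

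Genes around the ribosome did not pass the threshold in most cases. RACK1 was at 1329 to 1593 CPM and FAU at 160 to 218 CPM over the 12 libraries, and neither passed in any comparison. Their untreated guide values were -0.08 for RACK1 and -0.22 for FAU (adjusted p = 0.396). Of 8 paralogs 5 were tested (RPL7L1, RPL22L1, RPL26L1, RPL36AL and RPS27L) and none passed. RPL10L had no count, which in 1 library allows up to 3 counts, and RPL3L and RPL39L had at most 1 and 19 counts in a library. No mitochondrial ribosomal protein (78 tested), respiratory chain subunit (73), non-ribosomal TOP mRNA (20), snoRNA host gene (13), assembly factor (32), RNA polymerase I gene (13), chaperone of ribosomal proteins (8, with MDM2) or pseudogene (49) passed in any of the 6 comparisons.

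The median log2 fold changes of these lists in untreated cells, LTR8B against GFP, set the group's -0.14 in context. They were -0.11 for respiratory chain subunits, -0.12 for snoRNA host genes, -0.09 for mitochondrial ribosomal proteins and -0.07 for non-ribosomal TOP mRNAs. They were 0.01 for assembly factors and 0.00 for RNA polymerase I genes. Of the 11 genes of TOP and S6 signalling, MYC alone passed, and it fell with IFNB. MYC, a transcription factor that drives ribosome production, was at 104 CPM in GFP untreated and 76.4 CPM in GFP IFNB cells (log2 fold change -0.44, SE 0.10, adjusted p = 0.0208). In LTR8B cells it was at 100.4 and 79.0 CPM (log2 fold change -0.34, SE 0.07, adjusted p = 0.00752). LARP1 was at 351 to 405 CPM and passed in no comparison.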

How the data were processed

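The starting table held whole-number counts per gene as deposited by the authors, and 0.0827% of them belonged to identifiers without an entry in the table of gene names. Per the submitters' processing notes, Salmon 0.13.1, DESeq2 1.38.3 and hg38 were used; the roles of these tools, annotation and strand setting are not given in the sources used here. Identifiers were matched to symbols (60415 matched), and the genes and lists were chosen with earlier results of these data known. Counts of the 12 libraries were analysed with edgeR 4.0.16 (quasi-likelihood, robust, TMM, filterByExpr with a minimum count of 10) in 1 model with a mean per group, on 16393 genes, with Benjamini-Hochberg adjustment at 0.05. The fit was tested on simulated data. Alternatives were other scalings, DESeq2 1.42.0, limma-voom 3.58.1, no filter, a replicate block and leaving out each library. Members were named if they passed the threshold, were among the 3 highest or lowest in level, or in log2 fold change of the guide average or an IFNB response, or for a known role; other lists gave up to 4 genes past the threshold. RPL4, RPL6, RPL7A, RPL15, RPL23A, RPL28, RPL36, RPS4X and RPS15 fall outside that rule and were named after their values were seen. Lengths and positions came from GENCODE 29, start sequences from RefSeq. Some genes that the rule would name are not reported here.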

Additional observations from a re-analysis of the deposited data

Results flagged for a closer look

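RPL36A stood out in 1 library: LTR8B untreated 2 had 249 CPM, far above the other 3 libraries of the group, which lay between 164 and 174 CPM. Of the 32 named genes and the summed share, tested in the LTR8B untreated and the LTR8B IFNB group, this was the 1 value of its kind. In all 66 groups of 4 libraries were examined, and chance marks about 1 in 20 of them. The same library had 75 of the 77 genes above their own mean, and RPL36A shares reads with RPL36AP37 and with the readthrough RPL36A-HNRNPH2. Their part in this value was not tested.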

How the results depend on the processing

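The number of ribosomal protein genes past the threshold was 0 in both IFNB responses and the interaction under every alternative. For the untreated guide comparison it was 4 with DESeq2 and 1 (RPL9) with no filter on low counts, against 0; with IFNB it was 1 with either, and 0 to 1 when single libraries were left out. For the guide average, 1 in the main analysis, it was 3 with DESeq2, 3 with no filter, 0 with the replicate block and 0 to 5 without single libraries; the 5, without LTR8B untreated 2, included RPL9, RPS9 and RPL28. The median log2 fold change ran from -0.086 to 0.086 for the guide with IFNB, -0.213 to -0.038 for the IFNB response of GFP cells, 0.054 to 0.235 for the interaction and -0.01 to 0.07 for the IFNB response of LTR8B cells when single libraries were left out. The share in GFP untreated was 8.10% without mitochondrially encoded genes.

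Some single genes turned sign when single libraries were left out. RPL9, at -0.13 for the guide with IFNB, ran from -0.25 to 0.01, and RPL14 from -0.01 to 0.03 (guide average). In the IFNB response of GFP cells RPL22 ran from -0.02 to 0.10, RPL38 from -0.11 to 0.06 and RPS13 from -0.08 to 0.03. In that of LTR8B cells RPS29 ran from -0.16 to 0.07, RPL35 from -0.12 to 0.02 and RPL26 from -0.11 to 0.00. The cause was not tested.

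Over all tested genes, calls were 59 (untreated guide), 58 (guide with IFNB), 351 (guide average) and 0 (interaction). They were 179, 119, 566 and 0 with DESeq2, and 325, 260, 775 and 13 with no filter. Without single libraries they reached 22 without GFP untreated 2 and 94 without LTR8B untreated 2 (untreated guide), 21 without GFP IFNB 2 (guide with IFNB) and 93 without GFP untreated 2 (guide average). IFNB response calls in GFP cells were 524, and 344 without GFP untreated 1.

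Replicate numbers were not taken to pair the libraries, since the labels give no shared source and 1 of the 4 LTR8B pairs was near 0. Across treatments, same-numbered libraries correlated at 0.278, 0.288, 0.0794 and 0.268 in LTR8B cells. In GFP cells both pairs gave 0.146, which is 1 value, since deviations from a mean of 2 libraries mirror each other. Every LTR8B library except LTR8B untreated 3 correlated best with its own number, a hint from the data and not from the design. Between the lines, same-numbered libraries ran from -0.191 to -0.0542. The replicate block differed by comparison. For the guide it joined equal numbers across the lines, a pairing that the labels do not give. For the IFNB responses and the interaction it was set within each line. The replicate block gave 181 calls over all tested genes for the guide average and 4 for the interaction. Over the ribosomal protein genes, the blocked medians were -0.08 for the guide in untreated cells, 0.05 with IFNB and -0.03 for the average (48 negative). At an unadjusted p under 0.05 there were 13, 3 and 4 genes, beside 8.69%, 10.1% and 12.2% of all tested genes. In the IFNB response of GFP cells the block gave 33 such genes, all lower (6.78% of all tested genes were), in that of LTR8B cells 0, and in the interaction 28 (6.26%). With the 2 GFP libraries per treatment, the median SE of a ribosomal protein gene ran from 0.06 for the guide average to 0.11 for the interaction. This limits what could be called.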
